A study of Homo sapiens with 9 samples.

Results

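The genes described here are the 8 multidomain members of the BCL2 family, made up of 5 guardians, BCL2, BCL2L1, BCL2L2, MCL1 and BCL2A1, and 3 effectors, BAX, BAK1 and BOK. They were taken by symbol from the 60605 genes of the deposited table, 1 entry per symbol, and all 8 passed the filter on low values, a mean over the 9 libraries of 0.1 FPKM or more (reads scaled by exonic length and library total), which left 21395 genes to test. Each entry had the same start, end and exonic length as the gene in GENCODE release 44 on GRCh38.

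The BCL2 family decides whether the outer membrane of the mitochondrion stays closed. BAX and BAK1 form pores in that membrane, through which cytochrome c reaches the cytosol and starts the caspase cascade, whereas the guardians hold BAX, BAK1 and the BH3-only initiators in inactive complexes. BOK resembles BAX and BAK1 in fold but is controlled mainly by protein turnover. Squamous carcinoma cells commonly rely on MCL1 and BCL-xL, the long protein of BCL2L1, whereas BCL2 itself and BCL2A1 are best known from blood cells.

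RNA-seq was carried out on TE13, an established esophageal squamous cell carcinoma (ESCC) line, after knockdown of the lncRNA PARylator (LINC00885). Each of 3 conditions has 3 libraries, made from cells given control siRNA (control cells below), PARylator siRNA.1, or the second targeting siRNA, PARylator siRNA.2. All groups share the line and transfection with an siRNA. The time after transfection is not given in the sources used here for these libraries. Replicates are described as experimental repeats in the study, while the labels do not say whether they were separate cultures. The p-values therefore rest on the spread between these libraries. In edgeR that spread followed the trend over all genes and was not each gene's own. The comparisons ask how the members differed with each siRNA from control siRNA and between the siRNAs. Both comparisons with control share the same 3 control libraries.

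Library totals ranged from 15337917 to 22559998 counts on genes, and replicates differed beyond sampling noise. Mitochondrially encoded genes took 7.46% to 7.66% of the counts in control cells, 4.99% to 5.06% in siRNA.1 cells and 5.54% to 5.56% in siRNA.2 cells. LINC00885, the targeted gene, had 6, 7 and 12 counts in control cells, 4, 5 and 2 in siRNA.1 cells, and 2, 0 and 4 in siRNA.2 cells. In FPKM all 6 siRNA libraries lay below the 3 control libraries. Neither siRNA passed the edgeR test (log2 fold change −1.21, standard error (SE) 0.95, adjusted p = 0.376 and −2.33, SE 1.01, adjusted p = 0.0659), so knockdown could not be established from these counts at this depth. The paper reports siRNA knockdown of PARylator in ESCC cells by qPCR. All 13 squamous epithelial markers were above 1 FPKM in each condition, but 5 were higher and 5 lower by edgeR with each siRNA. The higher markers were KRT6A, EPCAM, DSG3, PERP and KRT18 with both siRNAs. In that order, their log2 fold changes were 0.34, 0.44, 0.58, 0.36 and 0.37 in siRNA.1 cells. In siRNA.2 cells they were 0.58, 0.45, 0.27, 0.34 and 0.15. The keratin KRT14 passed with neither siRNA (0.21, adjusted p = 0.125 and −0.08, adjusted p = 0.652 from edgeR). Nor did DSP (0.08 and −0.05) or KRT8 (0.07 and −0.04). Lower with both siRNAs was the basal keratin KRT5, at a mean of 142 FPKM in control cells, 40.0 with siRNA.1 and 55.8 with siRNA.2. So was SOX2, at 11.7, 3.30 and 6.42 FPKM. The other lower markers changed less, TP63 by log2 fold changes of −0.15 and −0.21, KRT17 by −0.22 and −0.34 and CDH1 by −0.15 and −0.53. Of 10 blood cell markers, MS4A1 was at 0 throughout and the summed level was 5.54 to 6.63 FPKM in control cells, 7.89 to 8.81 in siRNA.1 cells and 7.41 to 8.73 in siRNA.2 cells. Of 6 fibroblast markers, the sums were 2.23 to 2.49, 1.46 to 1.64 and 1.50 to 1.72 FPKM.

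What makes these genes a family is a set of short homology domains, of which BH1 carries the residues Asn-Trp-Gly-Arg in 7 of the 8 proteins. The 12 bases that encode them are in capitals below, with 12 coding bases on each side, read 5′ to 3′ on the coding strand from the canonical GENCODE transcripts on GRCh38. They are shown because they mark the groove that both guardians and effectors use. BOK has no Asn-Trp-Gly-Arg in its canonical protein, and the matching place, found as the letters WG followed by R or K and a pair of aliphatic residues, reads Thr-Trp-Gly-Lys.
MCL1: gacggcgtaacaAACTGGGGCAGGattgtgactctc
BCL2L1: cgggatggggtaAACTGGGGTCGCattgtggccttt
BCL2L2: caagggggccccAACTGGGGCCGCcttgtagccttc
BCL2: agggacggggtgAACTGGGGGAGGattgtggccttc
BCL2A1: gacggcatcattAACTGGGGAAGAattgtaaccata
BAX: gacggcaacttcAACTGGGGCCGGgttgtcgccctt
BAK1: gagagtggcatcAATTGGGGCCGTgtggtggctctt
BOK: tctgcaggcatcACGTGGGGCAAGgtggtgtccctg

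The 7 Asn-Trp-Gly-Arg stretches had 7 distinct spellings. Over the 36 bases shown, the closest pair was BCL2 and BCL2L1, which shared 29 bases, and the most distant was BOK and BCL2L1, which shared 17. In MCL1 the capitals stand at chr1:150578391-150578402 (minus strand, residues 260 to 263), within exon 2 of 3, which the short MCL1 splice form is known to skip. The deposited values are per gene, so splice forms with opposite activity, such as those of MCL1 and BCL2L1, cannot be told apart in them.

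MCL1 was the most abundant member in every library, and the levels spanned more than 2 orders of magnitude. With control siRNA the order of mean FPKM was MCL1 (96.3), BAX (29.4), BCL2L1 (24.6), BCL2L2 (18.3), BAK1 (18.0), BOK (9.42), BCL2A1 (0.517) and BCL2 (0.270). The ranges of BCL2L2 and BAK1 overlapped, as did those of BCL2A1 and BCL2, and the other neighbours did not. MCL1 stood above 98.4% of the tested genes in the control libraries and BCL2 above 20.2%. With siRNA.1, BCL2L1 (30.8 FPKM) stood above BAX (28.7 FPKM) without overlap. With siRNA.2 BAX (31.6 FPKM) stayed above BCL2L1 (24.1 FPKM). BAK1 and BCL2L2 overlapped with either siRNA. The length behind FPKM counts all annotated exons, 2587 bases for BAX against 795 in its canonical transcript, and 2212 against 2170 for BAK1. The order between genes depends on that choice.

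**Figure D1:**
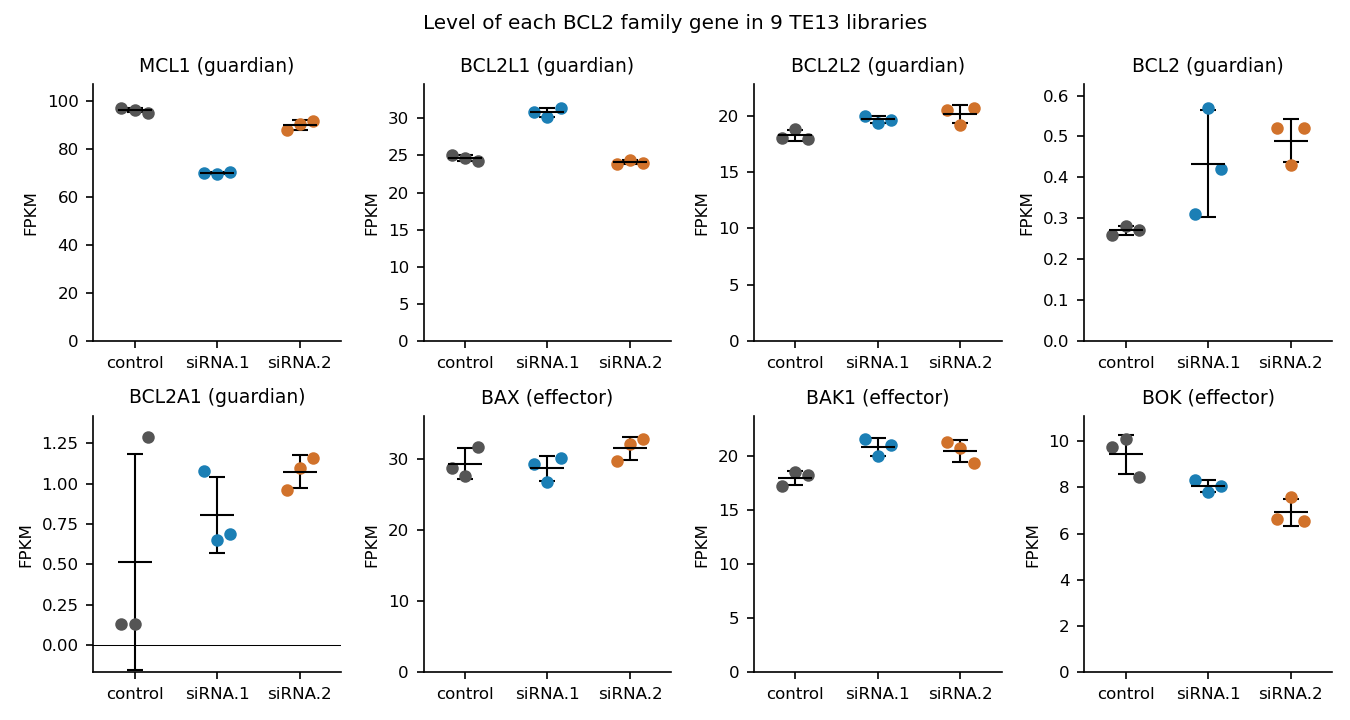
Level of each member in FPKM (vertical axis, a separate linear scale that includes 0 for each gene) in the 9 libraries, with dots for libraries and black marks for the mean ± SD (n = 3). MCL1 lies at about 70 FPKM in siRNA.1 cells against 95.3 to 97.2 in control cells, BCL2L1 is higher in siRNA.1 cells alone, BOK is lower under both siRNAs, and the third control library of BCL2A1 lies at 1.29 FPKM while the others lie at 0.13.

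MCL1, the short-lived guardian that holds BAK1 and the BH3-only protein NOXA, fell under both siRNAs and fell more in siRNA.1 cells. The gene is at chr1:150560895-150579738 on the minus strand. Its level was 97.2, 96.3 and 95.3 FPKM in control cells, 70.0, 69.6 and 70.6 in siRNA.1 cells, and 87.8, 90.6 and 91.7 in siRNA.2 cells. No library of one condition overlapped with those of another. The log2 fold change was −0.49 in siRNA.1 cells (SE 0.04, adjusted p = 6.18e-34 from edgeR, n = 3 per condition), a level of 71.4% of control. With siRNA.2 it was −0.11 (SE 0.04, adjusted p = 0.0201 from edgeR), 92.8% of control. The siRNA.2 call was lost without a filter on low values (−0.10, adjusted p = 0.0720 from edgeR), without control replicate 1 (−0.10, adjusted p = 0.0585) and without siRNA.2 replicate 1 (−0.08, adjusted p = 0.140). Of the exonic bases of MCL1, 5.27% are shared on the same strand with ADAMTSL4-AS1, and reads there cannot be assigned with certainty.

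BCL2L1, which encodes the guardian BCL-xL and a proapoptotic short form, rose in siRNA.1 cells and did not pass the test in siRNA.2 cells. Its gene lies at chr20:31664452-31723989 on the minus strand. Its level was 25.0, 24.7 and 24.2 FPKM in control cells, 30.9, 30.2 and 31.4 in siRNA.1 cells, and 23.9, 24.4 and 24.0 in siRNA.2 cells. All siRNA.1 libraries were above all others, and the siRNA.2 and control libraries overlapped. On the log2 scale the change was 0.30 in siRNA.1 cells (SE 0.05, adjusted p = 5.23e-07 from edgeR), 123% of control, and −0.04 in siRNA.2 cells (95% interval −0.15 to 0.06, adjusted p = 0.622 from edgeR). Of its exonic bases, 41.3% lie opposite exons of ABALON on the other strand. Whether the counting used strand is not given in the sources used here, so reads of BCL2L1 and ABALON may be mixed.

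BCL2L2, which encodes the guardian BCL-w, stood at 106% of control in siRNA.1 cells and 110% in siRNA.2 cells and passed the test in neither. The gene is at chr14:23298790-23311751 on the plus strand. It was measured at 18.0, 18.8 and 18.0 FPKM in control cells, 20.04, 19.39 and 19.69 in siRNA.1 cells, and 20.5, 19.2 and 20.7 in siRNA.2 cells. All 6 siRNA libraries lay above the 3 control libraries. The log2 fold change was 0.08 in siRNA.1 cells (95% interval −0.03 to 0.20, adjusted p = 0.307 from edgeR) and 0.13 in siRNA.2 cells (0.02 to 0.24, adjusted p = 0.0636 from edgeR). The siRNA.2 value passed under 4 of 11 other settings, with adjusted p down to 0.0255. Because 16.8% of its exonic bases also belong to the readthrough gene BCL2L2-PABPN1 on the same strand, some of its reads are uncertain.

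BCL2, the founding guardian of the family, was barely expressed and rose under both siRNAs. Its gene lies at chr18:63123346-63320128 on the minus strand and shares no exonic bases with another gene. It had 50, 56 and 62 counts in control cells, 70, 110 and 93 in siRNA.1 cells, and 129, 105 and 147 in siRNA.2 cells. In FPKM these were 0.26, 0.28 and 0.27, then 0.31, 0.57 and 0.42, then 0.52, 0.43 and 0.52. Every siRNA library was above every control library, and siRNA.1 replicate 1 was closest to them. On the log2 scale the change was 0.63 in siRNA.1 cells (SE 0.21, adjusted p = 0.00952 from edgeR) and 0.83 in siRNA.2 cells (SE 0.20, adjusted p = 0.000223 from edgeR), 155% and 178% of control. Without siRNA.1 replicate 2 the siRNA.1 value was 0.41 (adjusted p = 0.199 from edgeR). With limma on log2(FPKM + 0.1) neither call was made (0.50, adjusted p = 0.191 and 0.67, adjusted p = 0.0834), whereas limma on log2 CPM (counts scaled to the library total) with TMM factors made both (0.59, adjusted p = 0.0356 and 0.81, adjusted p = 0.00359).

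BCL2A1, an inducible guardian of white blood cells known as an NF-kB target, could not be placed because 1 control library stood apart. The gene is at chr15:79960892-79971196 on the minus strand. It had 2, 2 and 23 counts in control cells, 19, 10 and 12 in siRNA.1 cells, and 19, 21 and 26 in siRNA.2 cells. In FPKM, control replicate 3 (1.29) lay above all 6 siRNA libraries (0.65 to 1.16), and the other control libraries (0.13 each) lay below them. The log2 fold change was 0.56 in siRNA.1 cells (SE 0.54, adjusted p = 0.491 from edgeR) and 0.98 in siRNA.2 cells (SE 0.52, adjusted p = 0.152 from edgeR). With limma on log2 CPM with TMM factors the siRNA.2 value passed (1.44, adjusted p = 0.0351). Without control replicate 3, both comparisons passed (2.55, adjusted p = 0.00899 and 2.97, adjusted p = 0.00109 from edgeR). Without control replicate 1 or 2 the siRNA.1 value was 0.12 (adjusted p = 0.924 and 0.929 from edgeR) and the siRNA.2 value 0.54 (adjusted p = 0.531 and 0.542), so the choice of library decides the call. With control replicate 3 left out, the ratio of summed reads per library total was 6.27 in siRNA.1 cells (95% exact interval 2.27 to 24.1, counting error only) and 8.29 in siRNA.2 cells (3.09 to 31.3), from 4 control reads. This ratio was chosen after the values were seen. Its intervals leave out the spread between libraries, which was larger than counting error over all genes, so they decide nothing. In control replicate 3, 5 genes with at least 20 counts, BCL2A1 among them, were at 5 or more times the level of both other control libraries, against 1 to 7 such genes in the other libraries.

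The rise of BCL2 and the values of BCL2A1 stood beside changes in blood cell markers. Of the 10 listed, 6 were abundant enough to test, and with each siRNA 4 were higher and 1 was lower by edgeR. Of all genes tested, 30.3% passed in either direction with siRNA.1 and 30.9% with siRNA.2. The 4 were LYZ, at a mean of 0.317 FPKM in control cells, 2.79 in siRNA.1 cells and 3.08 in siRNA.2 cells, FCER1G (0.190, 1.07 and 1.47 FPKM), CSF1R (0.490, 0.897 and 0.757 FPKM) and PTPRC, which marks all white blood cells (0.0333, 0.153 and 0.147 FPKM). LAPTM5 was lower (4.83 to 5.09, 2.38 to 3.45 and 2.27 to 2.58 FPKM), and TYROBP, at a mean of 0.0900, 0.260 and 0.373 FPKM, did not pass. Of the lymphocyte markers, CD2 and MS4A1 were at 0 in all 6 siRNA libraries and CD3E was at 0 to 0.02 FPKM. CD79A, also too low to test, stood at a mean of 0.0133 FPKM in control cells, 0.0867 in siRNA.1 cells and 0.0333 in siRNA.2 cells. The part of these markers in the BCL2 and BCL2A1 values was not tested. All libraries were of the TE13 line. In bulk RNA, a change in the number of cells that express a gene and a change in RNA per cell cannot be told apart.

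BAX, the effector that moves from the cytosol to the mitochondrion, showed no change that passed the test. Its gene lies at chr19:48954815-48961798 on the plus strand. It was measured at 28.8, 27.6 and 31.8 FPKM in control cells, 29.3, 26.8 and 30.1 in siRNA.1 cells, and 29.8, 32.2 and 32.8 in siRNA.2 cells. The conditions overlapped. BAX had the largest SD of the 3 effectors in each of them, 2.13, 1.76 and 1.61 FPKM, but also the highest mean. On the log2 scale the change was −0.06 in siRNA.1 cells (95% interval −0.18 to 0.06, adjusted p = 0.508 from edgeR) and 0.09 in siRNA.2 cells (−0.03 to 0.21, adjusted p = 0.276 from edgeR).

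BAK1, the effector that sits in the outer membrane bound to MCL1 and BCL-xL, lay above control in all 6 siRNA libraries and stayed just short of the threshold. The gene is at chr6:33572547-33580293 on the minus strand. Its level was 17.2, 18.5 and 18.2 FPKM in control cells, 21.5, 19.9 and 21.0 in siRNA.1 cells, and 21.3, 20.7 and 19.3 in siRNA.2 cells. The log2 fold change was 0.18 in siRNA.1 cells (SE 0.08, adjusted p = 0.0510 from edgeR) and 0.17 in siRNA.2 cells (SE 0.08, adjusted p = 0.0708 from edgeR). Of 11 other settings, 7 passed in siRNA.1 cells, with DESeq2 at adjusted p = 0.0468, and 4 passed in siRNA.2 cells. Leaving out siRNA.1 replicate 2 also made the siRNA.1 call (0.22, adjusted p = 0.0315 from edgeR).

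BOK was the only effector that passed the edgeR test, and it was lower under both siRNAs. Its gene lies at chr2:241551424-241574131 on the plus strand, and 7.50% of its exonic bases lie opposite BOK-AS1. Its level was 9.73, 10.1 and 8.46 FPKM in control cells, 8.32, 7.81 and 8.04 in siRNA.1 cells, and 6.65, 7.59 and 6.53 in siRNA.2 cells. The 3 conditions did not overlap, and control replicate 3 was the nearest to the siRNA.1 libraries. On the log2 scale the change was −0.45 in siRNA.2 cells (SE 0.10, adjusted p = 5.41e-05 from edgeR), 73.0% of control, and this call was made in all 11 other settings and all 9 fits without 1 library. With siRNA.1 it was −0.25 (SE 0.10, adjusted p = 0.0468 from edgeR), 84.1% of control. That call was lost in 6 of 11 other settings, DESeq2 among them (adjusted p = 0.0631), and in 7 of 9 fits without 1 library. Control replicate 3 and siRNA.2 replicate 1 were the only libraries that could be left out without losing it, and the adjusted p reached 0.206 without control replicate 2.

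**Figure D2:**
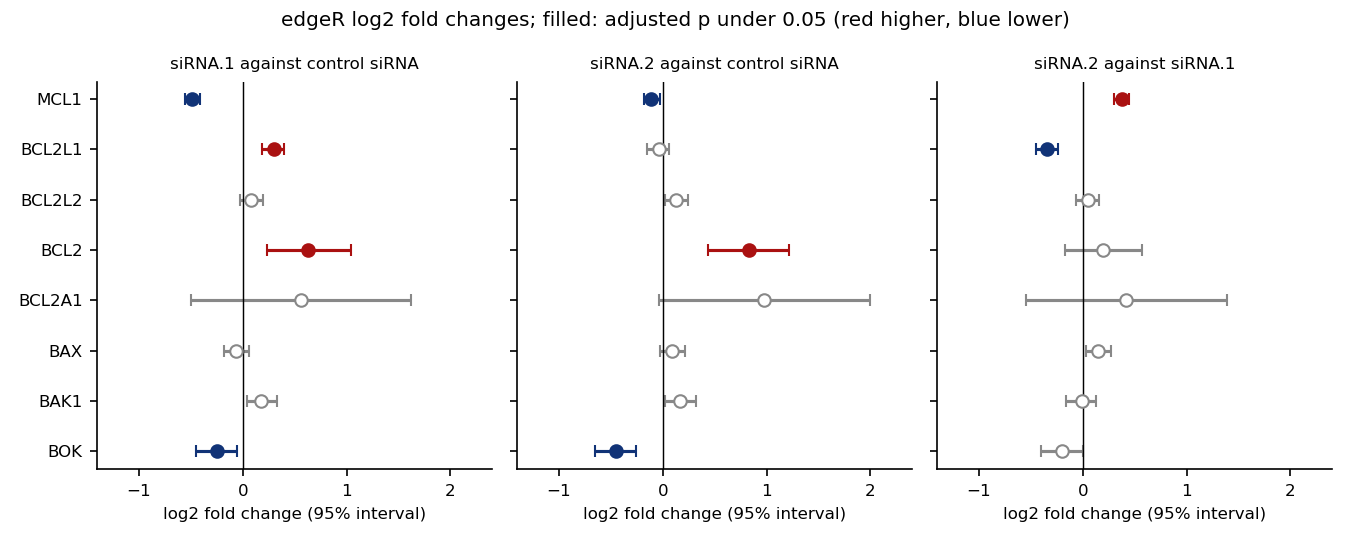
Log2 fold change of each member from edgeR (horizontal axis) with its 95% interval in the 3 comparisons, filled where the adjusted p was under 0.05 (red higher, blue lower). With siRNA.1, MCL1 and BOK were lower and BCL2L1 and BCL2 higher, in siRNA.2 cells MCL1 and BOK were lower and BCL2 higher, and the siRNAs differed in MCL1 and BCL2L1.

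With siRNA.1, 4 of the 8 members passed, 2 higher and 2 lower, beside 30.3% of all genes tested (15.0% higher and 15.2% lower). With siRNA.2, 3 of 8 passed, 1 higher and 2 lower, beside 30.9% of all genes tested (15.8% higher and 15.1% lower). At these background rates 2 or 3 of 8 genes would pass, and both counts lie close to that. With the filter at a mean of 1 FPKM, 4 of the 6 members kept passed with each siRNA. Beside them, 5819 of 12532 genes passed with siRNA.1 and 5913 of 12532 with siRNA.2, a larger share. With library totals as the only scaling, 5 members passed in siRNA.2 cells, since BCL2L2 and BAK1 were added. The median log2 fold change of the members was 0.13 in siRNA.1 cells and 0.11 in siRNA.2 cells, and that of all genes tested was −0.0006 and 0.0040.

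A direct comparison of the siRNAs separated MCL1 and BCL2L1. The members that passed were 2 of 8, 1 higher and 1 lower, beside 12.2% of all genes tested (6.10% higher and 6.06% lower). With the filter at a mean of 1 FPKM, 2 of the 6 members kept passed, beside 2533 of 12532 genes, a larger share. MCL1 was higher in siRNA.2 cells than in siRNA.1 cells (log2 difference 0.38, SE 0.04, adjusted p = 4.67e-20 from edgeR) and BCL2L1 was lower (−0.34, SE 0.05, adjusted p = 1.75e-08 from edgeR). Both were called in every setting and every fit without 1 library. The other members were not called, with BAX at 0.15 (95% interval 0.03 to 0.27, adjusted p = 0.0799 from edgeR), BOK at −0.20 (adjusted p = 0.220) and BCL2 at 0.20 (−0.17 to 0.57, adjusted p = 0.622). BAX passed without siRNA.2 replicate 1 (0.20, adjusted p = 0.0225 from edgeR).

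Because FPKM is scaled by exonic length, the guardians were set against each other within a library on that length. It counts all annotated exons, 6222 bases for MCL1 against 3950 in its canonical transcript and 4840 against 3526 for BCL2L2. The size of each share depends on that choice. MCL1 made up 69.1%, 68.7% and 68.5% of the summed guardian FPKM in control cells, 57.2%, 57.8% and 57.5% in siRNA.1 cells, and 65.7%, 66.7% and 66.4% in siRNA.2 cells. The conditions did not overlap. BCL2L1 held 17.6% ± 0.184 (SD, n = 3) in control cells, 25.3% ± 0.258 in siRNA.1 cells and 17.7% ± 0.306 in siRNA.2 cells, and BCL2L2 held 13.1% ± 0.315, 16.2% ± 0.186 and 14.8% ± 0.610. BCL2 held 0.193%, 0.356% and 0.361% on average and BCL2A1 0.371%, 0.662% and 0.789%. The ratio of MCL1 to BCL2L1 was 3.91 ± 0.0253 in control cells, 2.27 ± 0.0295 in siRNA.1 cells and 3.74 ± 0.0716 in siRNA.2 cells. The shares are of transcripts, not of proteins, and no test was made on them.

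**Figure D3:**
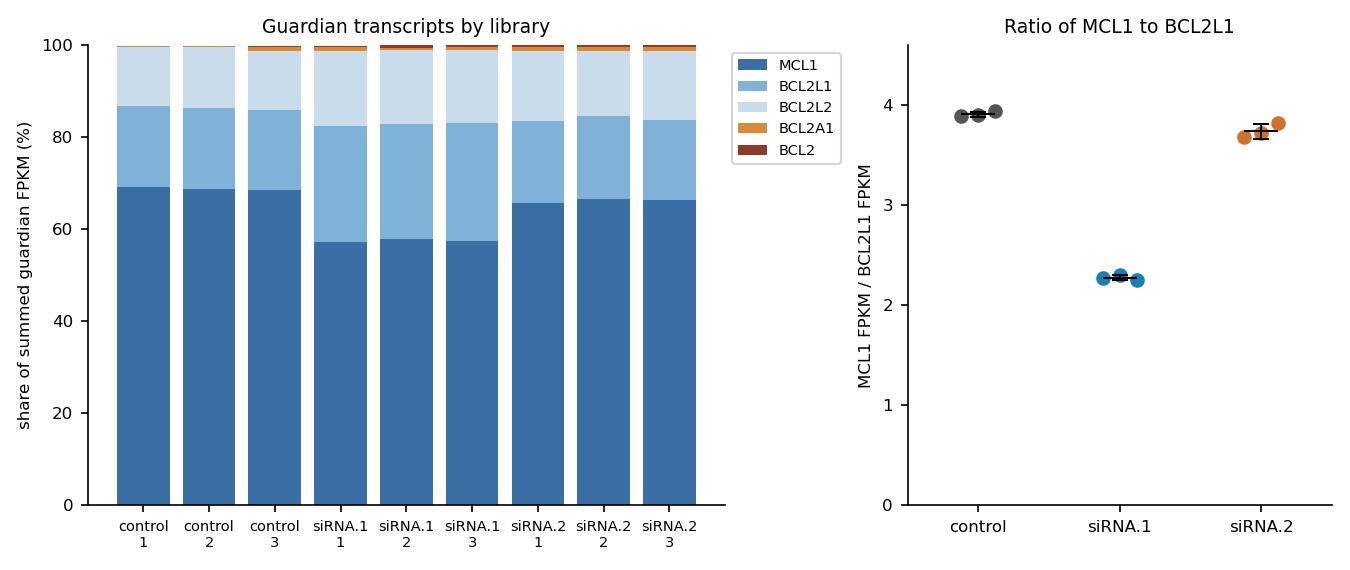
Left, share of each guardian in the summed guardian FPKM (vertical axis, percent) in the 9 libraries. Right, ratio of MCL1 FPKM to BCL2L1 FPKM, with dots for libraries and black marks for the mean ± SD (n = 3). MCL1 takes 57.2% to 57.8% in siRNA.1 cells and 65.7% to 69.1% in the other libraries.

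The summed guardian level was 140.0 ± 0.874 FPKM in control cells, 121.9 ± 1.23 in siRNA.1 cells and 135.8 ± 2.20 in siRNA.2 cells, and the summed effector level was 56.8 ± 1.43, 57.6 ± 2.68 and 58.9 ± 1.42 FPKM. The guardian sums did not overlap between conditions, while the effector sums overlapped between control siRNA and each siRNA. The log2 ratio of effectors to guardians was −1.30 ± 0.0451, −1.08 ± 0.0539 and −1.21 ± 0.0355. Like the guardian shares, these sums, this ratio and the effector shares depend on the exonic lengths used. BOK held 16.6% ± 1.87 of the effector sum in control cells, 14.0% ± 0.377 in siRNA.1 cells and 11.7% ± 0.731 in siRNA.2 cells, BAK1 held 31.6% ± 1.08, 36.2% ± 0.583 and 34.7% ± 2.02, and BAX held 51.7% ± 2.60, 49.8% ± 0.957 and 53.6% ± 2.22.

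The BH3-only initiators, which engage the guardians, moved in both directions. Of 8 tested, 2 rose and 1 fell in siRNA.1 cells (median log2 fold change −0.04), and 2 rose and 2 fell in siRNA.2 cells (median −0.04). PMAIP1, which encodes NOXA, the partner of MCL1, rose with both (0.56, SE 0.06, adjusted p = 7.88e-18 and 0.77, SE 0.06, adjusted p = 1.69e-34 from edgeR), from a mean of 26.0 FPKM to 39.0 and 44.6. BID, which activates BAX and BAK1, fell in siRNA.2 cells (−0.35, adjusted p = 1.46e-07 from edgeR). BAD stood at 0.00 and −0.05 and BIK at −0.24 and 0.05, and neither passed. The remaining calls, named after their values were seen, were BCL2L11 (BIM), which rose (0.60 and 0.30), and BMF, which fell (−0.77 and −1.48).

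Of 8 other BCL2 family and BNIP genes, 6 were tested and BCL2L10 and BCL2L15 were too low. With siRNA.1, BCL2L13 (0.36) and the mitophagy receptor BNIP3 (0.29) rose and BNIP3L (−0.63) fell, with a list median of −0.09. With siRNA.2, 0 rose and 2 fell, BCL2L12 (−0.28) and BNIP3L (−0.70), with a list median of −0.07.

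Downstream of the pore, the genes of mitochondrial release and the apoptosome changed in both directions. Of 14 tested, 3 rose and 6 fell in siRNA.1 cells (median −0.18), and 4 rose and 4 fell in siRNA.2 cells (median −0.04). CYCS, which encodes cytochrome c, rose from 103 FPKM to 145 in siRNA.1 cells (0.47, SE 0.04, adjusted p = 7.17e-36 from edgeR) and 159 in siRNA.2 cells (0.61, SE 0.04, adjusted p = 5.68e-62). VDAC2, the channel known to hold BAK1 and BAX at the membrane, rose with both (0.26 and 0.34), VDAC3 fell in siRNA.1 cells (−0.26) and stood at −0.01 in siRNA.2 cells, and VDAC1 stood at 0.02 and 0.03. Other calls were named after their values were seen. The apoptosome genes APAF1 (−0.39 and −0.49) and CASP9 (−0.89 and −0.86) and OPA1, which shapes the inner membrane (−0.26 and −0.23), fell under both siRNAs. HTRA2 (−0.39) fell in siRNA.1 cells, and in siRNA.2 cells DNM1L (−0.23) fell and DIABLO (0.51), an antagonist of XIAP, rose.

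Of 6 inhibitors of apoptosis, 0 rose and 3 fell in siRNA.1 cells (median −0.35), and 1 rose and 3 fell in siRNA.2 cells (median −0.29). BIRC2 (−0.30 and −0.20) and BIRC3 (−0.48 and −0.71), ubiquitin ligases of the NF-kB pathway, fell with both. BIRC5, which encodes survivin, rose in siRNA.2 cells (0.24) and stood at 0.01 in siRNA.1 cells, and BIRC6 stood at 0.01 and 0.05. The remaining call, named after its values were seen, was XIAP, the direct inhibitor of caspases, which fell with both (−0.48 and −0.38).

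Among 14 genes of the turnover and partners of MCL1, BOK and BCL2, 4 rose and 5 fell in siRNA.1 cells (median −0.08), and 4 rose and 4 fell in siRNA.2 cells (median −0.04). HUWE1, a ubiquitin ligase of MCL1, stood at −0.08 and 0.06 and did not pass. VCP, an ATPase of the degradation that clears BOK, fell under both siRNAs (−0.34 and −0.21), and so did TMBIM6, also called BAX inhibitor 1 (−0.23 and −0.17). ITPR3, an inositol trisphosphate receptor bound by BCL2 family proteins, rose in siRNA.1 cells (0.27) and stood at 0.00 in siRNA.2 cells. Other calls were also named after their values were seen. USP13, a deubiquitinase of MCL1, fell in siRNA.1 cells (−0.69). BTRC (−0.20 and −0.31) and GSK3B (−0.23 and −0.32), which take part in the degradation of MCL1, fell under both siRNAs, FBXW7, another ligase of MCL1 (0.29 and 0.30), and ITPR1 (0.64 and 0.60) rose with both, and GSK3A (0.15) rose in siRNA.2 cells. With limma on log2(FPKM + 0.1), the calls of FBXW7 and ITPR1 under both siRNAs, those of DIABLO and GSK3A in siRNA.2 cells and that of BTRC in siRNA.1 cells were not made. The share of genes called in any of these lists should be read against the 30.3% and 30.9% of all genes tested. Most list genes were above 1 FPKM. With the filter at a mean of 1 FPKM the share of all genes called was larger, 5819 of 12532 with siRNA.1 and 5913 of 12532 with siRNA.2.

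**Figure D4:**
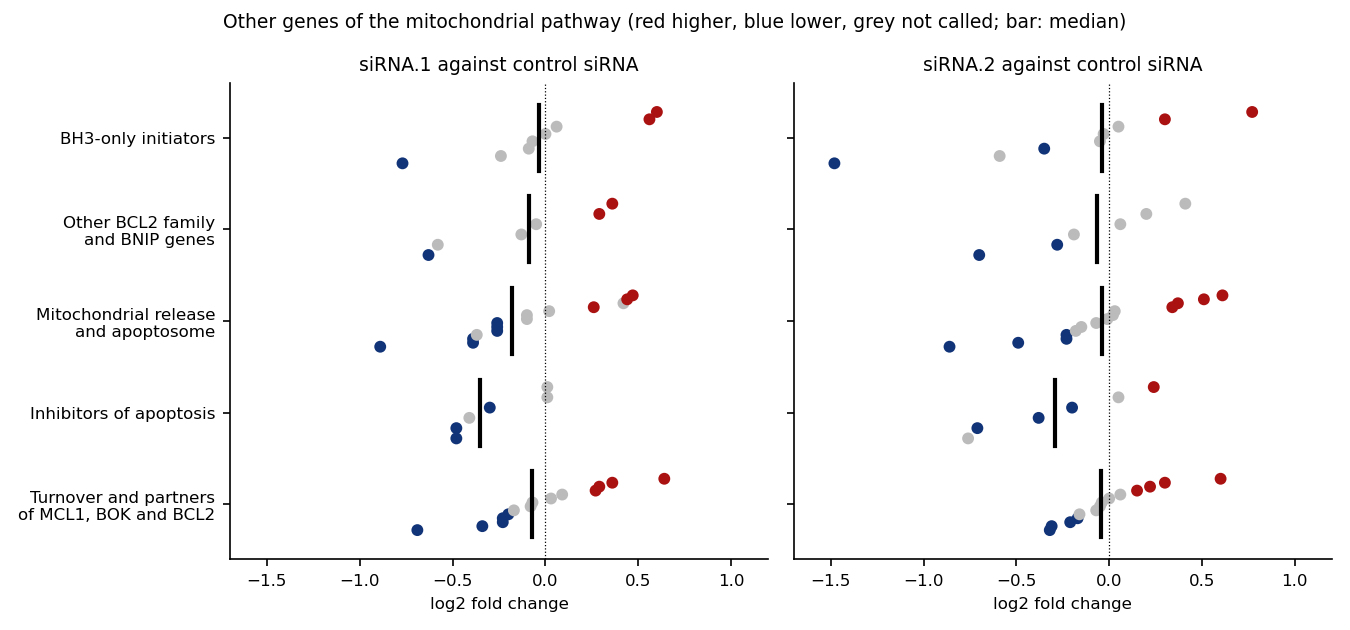
Log2 fold change from edgeR (horizontal axis) of the tested genes of the 5 lists, 1 dot a gene, against control siRNA for siRNA.1 (left) and siRNA.2 (right), coloured by call (red higher, blue lower, grey not called), with a bar at the list median. Every list holds genes on both sides of 0, and the inhibitors of apoptosis have the lowest medians, −0.35 and −0.29.

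Some genes followed the members closely over the 9 libraries. Pearson correlations of log2 CPM (counts scaled to the library total) were computed with 11868 genes of at least 1 FPKM, as a description over libraries that share 3 conditions. MCL1 was followed most closely by ARL6IP1 (r = 0.991), DEPDC1B (0.988) and CUL4A (0.984), and BCL2L1 by FAM83A (0.991), URGCP (0.983) and FURIN (0.982). For BCL2L2 they were MRPS33 (0.982), RPTOR (0.972) and C19orf54 (0.960), and for BAX WDR61 (0.956), ZNF324 (0.938) and HNRNPA1P48 (0.930). BAK1 was closest to PAIP1 (0.969), C6orf15 (0.967) and LRATD2 (0.965), and BOK to CPNE1 (0.979), SH3GL1 (0.977) and TMEM94 (0.976). The number of genes with r above 0.9 was 286 for MCL1, 132 for BOK, 126 for BAK1, 104 for BCL2L1, 56 for BCL2L2 and 9 for BAX.

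The members that moved the same way under both siRNAs were BCL2, MCL1 and BOK, and RefSeq promoters (GRCh38.p14, 250 bases before to 50 after the start, 5′ to 3′ on the gene's strand) were matched for BCL2 and BOK. They are shown because these genes moved in opposite directions from promoters of high GC content, 70.7% for BCL2 at chr18:63319720-63320019 (minus strand) and 66.7% for BOK at chr2:241558495-241558794 (plus strand), against a median of 58.7% over all promoters. Both strands were searched for TTTCNNTTT, the core of the interferon-stimulated element, which is in 10.5% of all promoters, GGGANTTCC, an NF-kB-like motif (1.85%), TGATGCAA, an ATF4-like motif (0.866%), and GGGCGG, an SP1-like motif (45.0%). The only match was an SP1-like motif on the minus strand of BOK, whose first base lies 49 bases before the start and which is in capitals below.
BCL2 promoter: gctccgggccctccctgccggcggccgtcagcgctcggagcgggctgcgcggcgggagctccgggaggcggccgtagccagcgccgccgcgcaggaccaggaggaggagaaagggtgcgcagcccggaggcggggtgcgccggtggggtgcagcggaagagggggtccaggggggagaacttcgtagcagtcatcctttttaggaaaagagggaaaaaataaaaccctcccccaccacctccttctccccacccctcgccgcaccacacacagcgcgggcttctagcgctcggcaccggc
BOK promoter: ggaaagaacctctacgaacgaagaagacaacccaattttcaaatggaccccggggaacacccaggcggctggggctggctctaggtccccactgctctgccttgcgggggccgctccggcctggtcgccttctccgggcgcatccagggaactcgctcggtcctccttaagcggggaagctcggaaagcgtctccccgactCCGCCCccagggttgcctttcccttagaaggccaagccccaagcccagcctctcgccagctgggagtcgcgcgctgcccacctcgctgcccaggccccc
Both windows lie inside the gene spans given above, so the starts used are not the outermost annotated ones. The GC content and matches describe letters in these windows alone and say nothing of binding.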

How the data were processed

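Poly(A)+ RNA of 9 TE13 libraries was sequenced and, according to the methods, checked with FastQC, aligned to GRCh38 with STAR and counted per gene with featureCounts. Versions, annotation release and strand setting are not given in the sources used here. The authors deposited raw counts per gene and FPKM, the count scaled by exonic length and library total. The design allowed for FPKM alone, and counts were present, so counts were tested with edgeR 4.0.16 (quasi-likelihood, TMM factors, R 4.3.3) over 21395 genes whose mean reached 0.1 FPKM, all 9 libraries being fitted together without covariates. P-values were adjusted by Benjamini-Hochberg and called below 0.05. edgeR gave every gene the spread of the trend. The SE was taken from F (the size of the log2 fold change over √F). Settings that allow a spread per gene were DESeq2 1.42.0 and limma 3.58.1. The limma fits were on log2(FPKM + 0.1), log2(FPKM + 1) and, added after seeing the data, log2 CPM. All these tools were tried on simulated data, except limma on log2(FPKM + 1). Members and lists were chosen with earlier results of these data known. Named genes are the members, the target, the 3 genes most correlated with each member above 1 FPKM, and up to 4 genes per list with the highest mean FPKM. Some genes counted in the lists are not reported here by name. Genes that share exonic bases are uncertain. Total counts of 15337917 to 22559998 set the precision. Intervals cover the spread between libraries as set by the trend, not by each gene alone, or, where said, counting error only.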

Additional observations from a re-analysis of the deposited data

Results flagged for a closer look

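The results below differed between the siRNAs by edgeR's quasi-likelihood test of siRNA.2 against siRNA.1 (Benjamini-Hochberg adjustment over all genes tested), and are given as log2 differences, siRNA.2 minus siRNA.1. Among the members, these were MCL1 (0.38, adjusted p = 4.67e-20), with log2 fold changes of −0.49 in siRNA.1 cells and −0.11 in siRNA.2 cells, and BCL2L1 (−0.34, adjusted p = 1.75e-08), with 0.30 and −0.04. Among the BH3-only initiators they were PMAIP1 (0.21, adjusted p = 0.00517), BCL2L11 (−0.30, adjusted p = 0.00678), BID (−0.26, adjusted p = 0.000695) and BMF (−0.70, adjusted p = 9.56e-14). Of the other BCL2 family genes, BCL2L12 (−0.23, adjusted p = 0.0212) and BCL2L13 (−0.30, adjusted p = 6.52e-06) differed by the edgeR test. Of the release and apoptosome genes, VDAC3 (0.25, adjusted p = 8.30e-05) and CYCS (0.15, adjusted p = 0.000898) differed by the edgeR test. Of the inhibitors of apoptosis, BIRC3 (−0.23, adjusted p = 0.000391) and BIRC5 (0.24, adjusted p = 0.000191) did so. Of the turnover genes and partners, HUWE1 (0.14, adjusted p = 0.00926), USP13 (0.62, adjusted p = 1.39e-06), VCP (0.13, adjusted p = 0.0105) and ITPR3 (−0.27, adjusted p = 1.04e-07) did so. Mitochondrially encoded genes took 4.99% to 5.06% of the counts in siRNA.1 cells and 5.54% to 5.56% in siRNA.2 cells, and their part in these differences was not tested.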

How the results depend on the processing

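Settings other than leaving out a library covered scaling, filter, tool, pseudocount, replicate block and the libraries in the fit. The count of members that passed in siRNA.1 cells was 3 to 5 over them against 4 as reported, and 3 to 5 with 1 library left out. With siRNA.2 it was 2 to 5 against 3, reaching 5 with library totals alone, and 2 to 4 with 1 library left out. Between the siRNAs it was 2 in all of them, and 2 to 3 with 1 library left out. Over all genes, limma on log2(FPKM + 0.1) called 1437 and limma on log2(FPKM + 1) called 1414 between the siRNAs, against 2603 with edgeR. With 1 library left out, 5615 to 6502 genes were called in siRNA.1 cells, 5692 to 6731 in siRNA.2 cells and 1906 to 2696 between the siRNAs. The share of MCL1 among guardian transcripts differed from control by −11.3 percentage points in siRNA.1 cells from FPKM (−11.4 to −11.1 with 1 library left out) and by −10.0 from raw counts, which do not correct for length. With siRNA.2 the difference was −2.51 (−2.74 to −2.22 with 1 library left out). The difference in the log2 ratio of effectors to guardians was 0.22 (0.20 to 0.25) in siRNA.1 cells and 0.10 (0.08 to 0.12) in siRNA.2 cells.

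Every value whose sign turned was one that edgeR did not call. With 1 library left out, BAX in siRNA.1 cells was −0.11 to 0.0007 (turned without control replicate 3), and BAK1 between the siRNAs was −0.05 to 0.02 (0.01 and 0.02 without siRNA.1 replicate 1 and siRNA.2 replicate 3). BAD in siRNA.1 cells was −0.0018 without mitochondrially encoded genes, −0.0031 with the replicate block, −0.01 with limma on log2 CPM, and −0.10, −0.04 and −0.02 with a library left out. With siRNA.1, leaving out 1 library gave BIRC5 down to −0.02, BIRC6 −0.04 to 0.09, HUWE1 −0.13 to 0.02 and VDAC1 −0.0013 to 0.03. With siRNA.2, ITPR3 was 0.01 with library totals alone, with no filter and with limma, and −0.05 to 0.06 with a library left out, where VDAC3 was −0.07 to 0.06.

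Deviations of libraries with the same replicate number correlated at −0.194 to 0.107, and those with different numbers at −0.0776 to 0.184. They were taken from the mean of each condition's 3 libraries, so this check could not establish whether the libraries were paired. With the replicate block 3 members passed in siRNA.1 cells, 3 in siRNA.2 cells and 2 between the siRNAs. BOK in siRNA.1 cells was not called there (−0.25, adjusted p = 0.0575 from edgeR). At this depth LINC00885, BCL2A1 and BCL2 rest on few reads.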
